A study of Drosophila melanogaster with 4 samples.

Results

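Isolated short autosomal clusters are small islands called as enriched for histone H3 dimethylated at lysine 27 (H3K27me2), with a wide surround free of such calls. They come from the list of enriched regions, or clusters, that the authors combined over both replicates of a chromatin immunoprecipitation (ChIP) experiment. A member was an enriched cluster on chromosome arm 2L, 2R, 3L or 3R, shorter than 4000 bp, with no other enriched cluster within 5000 bp of either edge. The rule found 510 such clusters. They were 6.12% of the 8329 short clusters on these arms, 4.15% of the 12281 clusters of any length there and part of 16862 clusters in the whole list. The other 7819 short clusters had an enriched neighbour within 5000 bp and are called non-isolated. The members were chosen by calls, lengths and distances in the combined list. Scores come from the same calls, so values from that list are given as a description with no test.

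Nuclei were taken from Drosophila melanogaster larvae of the last instar (L3), strain Oregon-R with a wild-type genotype, and the mark was pulled down with antibody Ab24684. The study has 2 ChIP samples and 2 input samples, each input serving the ChIP sample of its own number. All share strain, stage and genotype, and no other treatment is named. Larvae hold many tissues, so a list averages over them, and nothing says whether the replicates came from separate cultures of larvae.

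H3K27me2 is laid down by E(z), the catalytic subunit of the Polycomb complex PRC2, which also makes the monomethyl and trimethyl states of the same lysine. The trimethyl state marks silenced developmental genes, while the dimethyl state is spread broadly over chromatin that is not actively transcribed. Acetylation of the same lysine, found at active enhancers and promoters, and methylation exclude each other on a given lysine.

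Across the autosome arms the clusters covered 44.4% of the sequence in replicate 1 and 39.2% in replicate 2, and those of the combined list covered 53.9%. Isolated islands were an uncommon form among the calls. The isolated clusters together spanned 1003 kb, which was 1.93% of the autosomal bases covered in the combined list. Non-isolated short clusters held 32.1% of them. Read depth is unknown for every library, since the files hold no counts.

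The isolated clusters were slightly shorter than the non-isolated ones. Their median length was 1798.5 bp with quartiles of 1377 and 2383 bp, against 1979 bp with quartiles of 1488 and 2723 bp for non-isolated clusters. The shortest length in the list, 1001 bp, was reached by 6 members, the first of them on 2L at 16890047 to 16891047. The longest member lay on 3L at 16089528 to 16093496 and measured 3969 bp. Both classes thus reached down to the lower end of what was called.

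Enrichment in the isolated clusters was weak and close to that of non-isolated ones. The median score was 0.36 with quartiles of 0.28 and 0.46, against 0.39 with quartiles of 0.30 and 0.50 in non-isolated clusters, as the authors' score, read here as log2. The difference of medians, isolated minus non-isolated, was -0.024. With the same rule applied to the list of each replicate alone it was -0.034 in replicate 1 and -0.033 in replicate 2. The offset was thus small in all 3 lists, beside a distance of 0.19 between the quartiles of the members themselves.

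Within length classes the medians lay closer together. Among clusters of 1000 to 1500 bp the median score was 0.34 for isolated and 0.34 for non-isolated clusters. At 1500 to 2000 bp the medians were 0.29 and 0.29, at 2000 to 3000 bp they were 0.46 and 0.47, and at 3000 to 4000 bp they were 0.53 and 0.52. The lowest median in both classes lay at 1500 to 2000 bp rather than at the shortest lengths. Over members, score and length had a Spearman coefficient of 0.449, against 0.518 over the non-isolated clusters. These are descriptions across clusters of a single list.

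**Figure D1:**
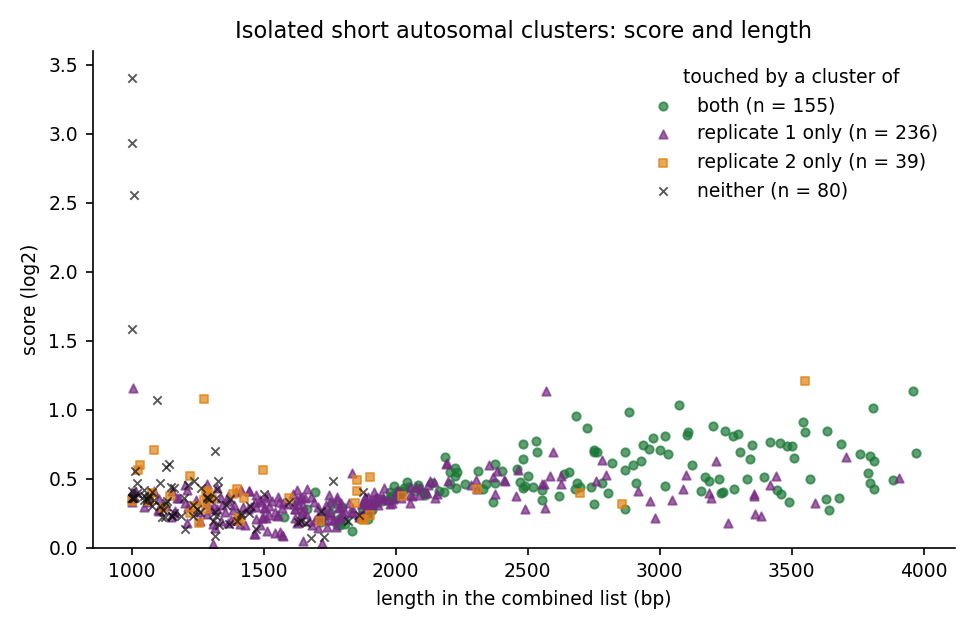
Score (log2) against length (bp) of the 510 isolated clusters in the combined list, with each symbol giving which replicate list touches the cluster. Clusters touched by both replicates begin at 1579 bp, and the 4 highest scores belong to clusters of 1001 to 1010 bp that neither replicate touches.

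The 4 highest scores belonged to clusters near the shortest length and were not found again in the single replicates. The top member, on 2R at 15619122 to 15620122, had a score of 3.40 over 1001 bp, with 5833 bp free on its left and 33138 bp on its right. Next came 3L 2064530 to 2065530 with 2.93 over 1001 bp, 3L 24016001 to 24017010 with 2.55 over 1010 bp, and 3L 23265450 to 23266450 with 1.59 over 1001 bp. Neither replicate list had a cluster that overlapped any of these 4. The fifth, 3L 24097049 to 24100597, was longer, at 3549 bp, had a score of 1.21 and was touched by replicate 2 and not by replicate 1.

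In all, 12 members (2.35%) scored over 1, against 95 (1.21%) of the non-isolated clusters. Of the 12, 7 were shorter than 1500 bp, and 5 of those were touched by neither replicate, against 68 of all 164 members under 1500 bp. The other 5 measured 1500 bp or more, and each was touched by at least 1 replicate. Exact ties were frequent among the high scores, but also among short members. A score shared exactly with another cluster of the list was carried by 7 of the 12, against 147 of the 498 members at or below 1. Of the 12, ties were held by 6 of the 7 under 1500 bp and by 1 of the 5 longer ones. Among all 164 members under 1500 bp, 75 (45.7%) were tied. The parts of score and length in the ties were not separated.

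The highest scores among members with a reciprocal overlap of 50% in both replicates were lower. They ran from 0.96 to 1.13 over clusters of 2682 to 3958 bp, and none of these 5 scores was tied. The first lay on 3L at 23670299 to 23674256, with a score of 1.13. Replicate 1 covered 83.3% of it and replicate 2 covered 93.7%. It was followed by 2L 21253084 to 21256155 with 1.03, 3L 9693532 to 9697339 with 1.01, 2L 16509135 to 16512019 with 0.98 and 2L 22289073 to 22291754 with 0.96. The cluster on 3L at 9693532 also stood far from others, with 22571 bp free on the left and 26930 bp on the right.

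The free stretch is the distance to the next enriched cluster on the left plus that on the right, so the rule sets its lower bound. Its median was 23.7 kb around isolated clusters, against 3.61 kb around non-isolated ones. Among members the middle 80% ran from 13.6 to 48.8 kb, and 45 members (8.82%) had more than 50 kb. Both sides were longer than 10 kb for 158 members (31.0%) and longer than 20 kb for 23 (4.51%). The longer side was 1.64 times the shorter in the median. Left and right had a Spearman coefficient of 0.155 over members, so a long side told little about the opposite one.

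**Figure D2:**
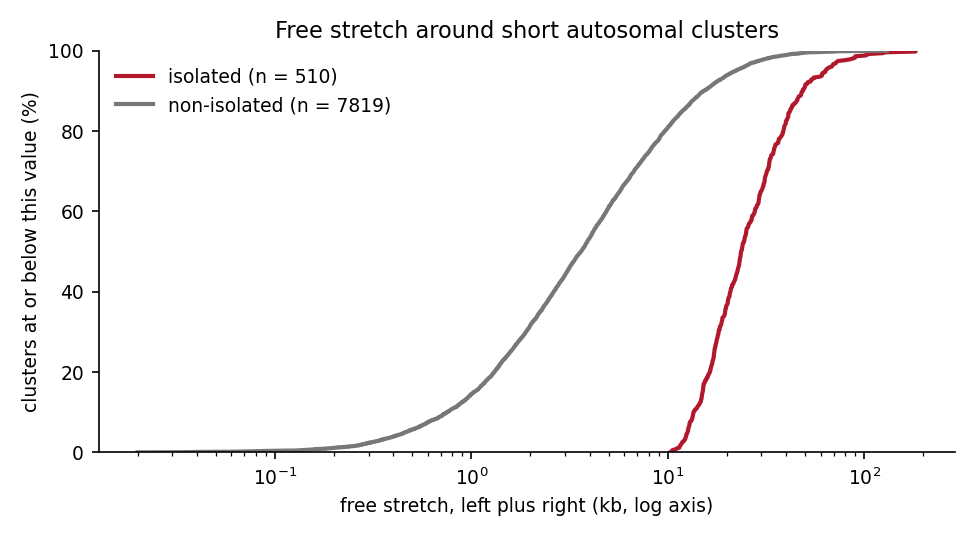
Share of short autosomal clusters (%) with a free stretch at or below each value (kb, log axis), for 510 isolated and 7819 non-isolated clusters of the combined list. The isolated curve starts at 10.4 kb and crosses its median at 23.7 kb, against 3.61 kb for the non-isolated clusters.

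The most remote member, judged by its shorter side, lay near the tip of 2L at 83001 to 84638, with 42.4 kb free on the left and 47.1 kb on the right and a score of 0.19. It was touched by replicate 1 and not by replicate 2. The next were 2R 21114468 to 21116777 with 38.6 kb, 3R 1398823 to 1399993 with 37.3 kb, 2L 8101781 to 8103917 with 34.1 kb and 2L 6463004 to 6464494 with 33.9 kb on the shorter side. The cluster on 2R is the last of its arm, so its right side ran to the arm end and its shorter side was taken as the left. Of these 5, replicate 1 touched each and replicate 2 touched the 2L cluster at 8101781 alone.

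The longest single free side, 174.9 kb on 3R, was bounded at both ends by a member. The member at 12628416 to 12629567 scored 0.41 and the member at 12804454 to 12806289 scored 0.26, and both were touched by replicate 1 only. A side of 118.3 kb lay left of 3L 19926793 to 19927795, and a side of 112.2 kb left of 2L 10308715 to 10310788.

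Score and free stretch were nearly unrelated over members, with a Spearman coefficient of -0.0798, and length and free stretch gave -0.00597. In 4 equal classes of members, from the shortest free stretch to the longest, the median scores were 0.37, 0.38, 0.35 and 0.36. The median lengths were 1790.5, 1852, 1778 and 1836 bp. Remote members were thus neither stronger nor longer in the median than those with nearer neighbours.

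Many members were neighbours of one another. The next cluster beyond a free side was itself a member in 25.8% of 1017 cases, against 3.41% of 15633 neighbours of non-isolated clusters, a contrast that the rule itself favours. The neighbours of members measured 2192 bp and scored 0.42 in the median, against 2447 bp and 0.44 for neighbours of non-isolated clusters. Broad neighbours of at least 10 kb made up 3.83% and 5.39%. Most neighbours of members were short, with 78.2% under 4000 bp, against 72.3% of the neighbours of non-isolated clusters. The rule favours this contrast too, since 262 of the 1017 neighbours were members and so short by definition. Of all autosomal clusters in the combined list, 8329 of 12281 were short.

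A total of 281 members (55.1%) stood alone between non-members, and the other members lay in runs of 2 to 5 with no other cluster between them. Pairs held 146 members. The longest runs had 5 members, on 3L from 8039013 to 8093447 (54.4 kb) and on 3R from 12874050 to 12924837 (50.8 kb). Along the 3L run the scores were 0.46, 0.24, 0.16, 0.34 and 0.44. The first 2 of these were touched by both replicates, the middle one by neither and the last 2 by replicate 1 only. Weak and stronger members, with and without replicate support, thus followed each other in a single run.

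The stretches next to members made up 12.9 Mb, or 13.3% of the 4 arms and 28.9% of the arm sequence without a combined cluster. The share of each arm was 13.7% on 2L, 14.0% on 2R, 14.3% on 3L and 11.7% on 3R. Repeats and gaps in the assembly were left in these lengths.

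Replicate support split the isolated clusters by replicate. A cluster counted as touched when it shared at least 1 base with a cluster of that replicate's own list. Replicate 1 touched 391 of the 510 members (76.7%), against 67.8% of the non-isolated clusters, and replicate 2 touched 194 (38.0%), against 56.7%. Over all 12281 autosomal clusters of any length the shares were 78.4% and 69.1%, so the share of members was near this background in replicate 1 and below it in replicate 2. Isolated minus non-isolated, the difference was 8.88 percentage points in replicate 1 and -18.7 in replicate 2, so the replicates differed in direction.

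In the mean of the replicates the support was 57.4% ± 27.3 for isolated clusters and 62.3% ± 7.81 for non-isolated ones (SD, n = 2). The mean difference of -4.91 ± 19.5 percentage points lay well within the spread between the replicates. With 2 ChIP samples the smallest p of an exact sign-flip permutation test is 0.5, and no test was run. The combined list rests on the same reads as the replicate lists, so this support is not an independent measure.

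By combination of replicates, 155 members (30.4%) were touched by both, against 42.1% of non-isolated clusters and 59.4% of all autosomal clusters. A further 236 (46.3%) were touched by replicate 1 only, against 25.7% of the non-isolated clusters. Replicate 2 alone touched 39 (7.65%), against 14.6%. Neither replicate touched 80 (15.7%), against 17.6% of the non-isolated clusters and 11.9% of all autosomal clusters. Against the non-isolated clusters, the widest of these 4 differences was in the share touched by replicate 1 only.

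The pattern was graded by how open the surround was. Clusters with no free side of more than 5000 bp, 5350 in all, were touched at 66.6% by replicate 1 and 60.3% by replicate 2. Clusters free on a single side, 2469 in all, were touched at 70.4% and 49.1%. For isolated clusters, free on both sides, the shares were 76.7% and 38.0%. The median length was 1993, 1943 and 1798.5 bp over these 3 classes, so length moved with the surround as well.

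Within each length class the opposite offsets of the replicates remained. Replicate 1 touched 43.3% of isolated against 20.5% of non-isolated clusters at 1000 to 1500 bp, 86.8% against 68.6% at 1500 to 2000 bp, 96.7% against 90.1% at 2000 to 3000 bp and 98.5% against 95.9% at 3000 to 4000 bp. Replicate 2 touched 15.2% against 26.2%, 27.7% against 45.3%, 61.7% against 74.3% and 76.1% against 86.9% in the same classes. In each of the 4 classes the isolated clusters were above the non-isolated ones in replicate 1 and below them in replicate 2.

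**Figure D3:**
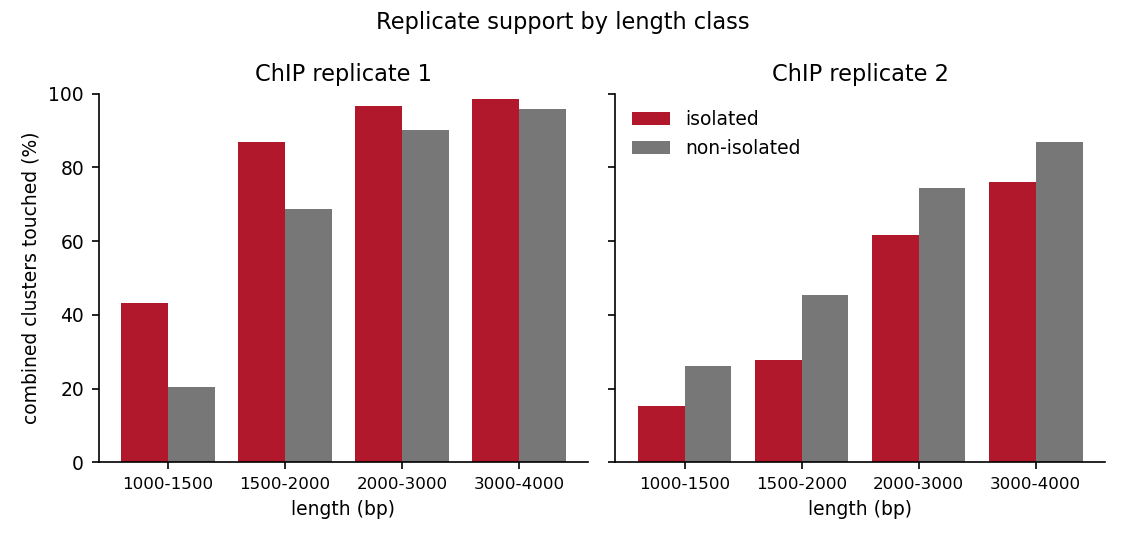
Share of isolated and non-isolated clusters of the combined list (%) that share at least 1 base with a cluster of ChIP replicate 1 (left) or replicate 2 (right), by length (bp). In every length class the isolated bar is the higher one in replicate 1 and the lower one in replicate 2, and both climb with length.

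Support was closely tied to length. Of the 164 members under 1500 bp, 68 (41.5%) were touched by neither replicate and 0 by both. Among 1998 non-isolated clusters of that length 54.2% were touched by neither and 18 (0.901%) by both. Of the 187 members of 2000 bp or more, 0 lacked a touching cluster. Few non-isolated clusters lacked one either, with 2.28% at 2000 to 3000 bp and 0.141% at 3000 to 4000 bp. Both replicates touched 70 of 120 members (58.3%) at 2000 to 3000 bp, against 66.7% of non-isolated clusters. At 3000 to 4000 bp they touched 50 of 67 members (74.6%), against 82.9%. The shortest autosomal cluster in either replicate list measured 1301 bp, so a shorter member can be touched only by a cluster longer than itself.

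Members touched by both replicates were the longest and scored highest in the median. Their median length was 2554 bp, against 1707 bp for replicate 1 only, 1385 bp for replicate 2 only and 1208 bp for neither. The median scores were 0.46, 0.33, 0.37 and 0.35 in that order. Exact ties of score ran from 19.4% of the members touched by both to 55.0% of those touched by neither. The free stretch was alike, with medians of 24.1, 24.0, 23.9 and 22.7 kb.

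Support by score followed the same lines. In 5 equal classes of 102 members, from the lowest scores to the highest, replicate 2 touched 20.6%, 20.6%, 28.4%, 49.0% and 71.6%. Replicate 1 touched 69.6%, 80.4%, 69.6%, 80.4% and 83.3%. Replicate 2 thus reached mainly the stronger members, while replicate 1 touched most members of each class. Non-isolated clusters, classed alike by their own scores, also rose from the lowest class to the highest. Replicate 2 touched 35.8% and 86.3% of them in these end classes, and replicate 1 touched 53.8% and 91.2%. The rise with score was thus not particular to members. Among the 12 members with scores over 1, replicate 1 touched 5 and replicate 2 touched 5. The median length was 1599.5, 1618.5, 1668, 2088 and 2789.5 bp over these classes, and the parts of score and length were not separated.

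Where a replicate touched a member, it usually placed the same island. The reciprocal overlap was at least 50% for 97.2% of the members touched by replicate 1 and for 87.6% of those touched by replicate 2, against 95.4% and 81.5% of the touched non-isolated clusters. Edges of the single touching cluster lay a median of 63 bp from the member's edges in replicate 1 and 233.5 bp in replicate 2, against 75 and 210 bp for non-isolated clusters. The combined list therefore followed the edges of replicate 1 more closely than those of replicate 2 in both classes. At 50% reciprocal overlap in both replicates, 132 members (25.9%) were left, against 33.8% of non-isolated clusters.

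The touching clusters were weak within their own lists too. In replicate 1 their median score of 0.52 stood at percentile 31.3 of that list's autosomal clusters, against percentile 34.0 for partners of non-isolated clusters. In replicate 2 the median of 0.52 stood at percentile 24.8, against 38.4. Over members the combined score had a Spearman coefficient of 0.851 with the score of the touching cluster in replicate 1 (391 members) and 0.562 in replicate 2 (194 members). For non-isolated clusters the coefficients were 0.831 and 0.496, so the closer tie to replicate 1 was not limited to the isolated clusters.

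Where a member was touched, the touching cluster was mostly isolated in its own list. It was itself short and isolated there for 363 of 391 members (92.8%) in replicate 1 and for 166 of 194 (85.6%) in replicate 2. The other direction gave lower shares. Of the 870 short clusters isolated in the list of replicate 1, 41.7% touched a member, and of the 810 in replicate 2, 20.5% did. The combined list covered more of the arms than either replicate list and rests on the same reads. The rule thus favours the shares of 92.8% and 85.6%, which are no separate evidence of isolation. A cluster that the combined list lacks lay inside the free stretch of 36 members in replicate 1 and of 58 in replicate 2. Within 5000 bp of the member this was so for 17 and 38. With the clusters of any of the 3 lists counted as neighbours, 447 of the 510 members were still isolated.

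**Figure D4:**
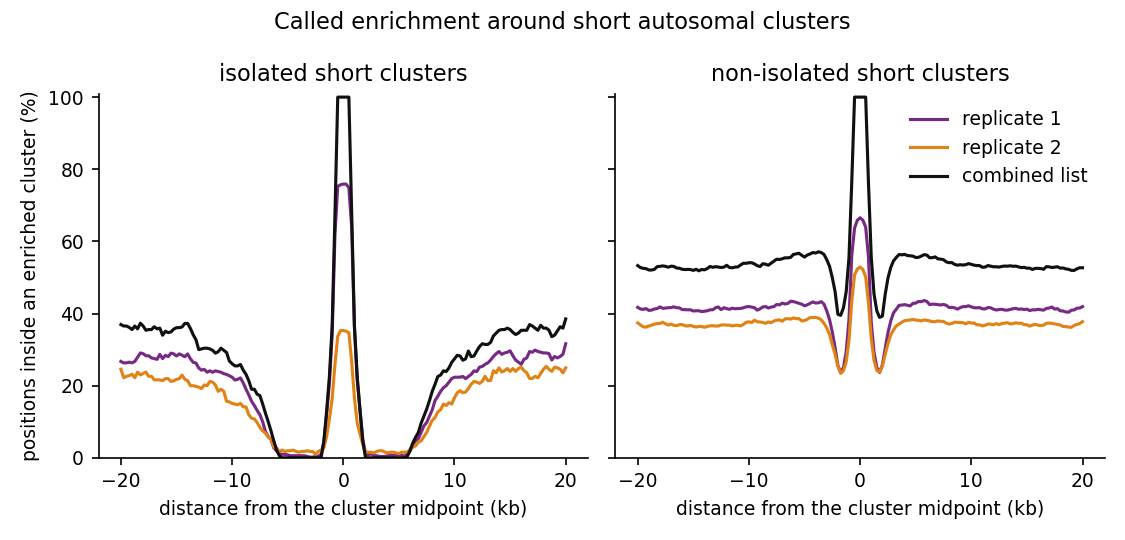
Share of clusters (%) whose surround lies inside an enriched cluster, by distance from the cluster midpoint (kb), for isolated (left) and non-isolated (right) short clusters in replicate 1, replicate 2 and the combined list. The empty flanks on the left follow from the rule; at the midpoint replicate 1 reaches 75.9% and replicate 2 35.3% of isolated clusters, against 66.6% and 52.9% of non-isolated ones.

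The wider surround of members was also less marked than that of non-isolated clusters. At 20 kb from the midpoint, well past the distance in the rule, 36.9% and 38.5% of positions on the left and right of members lay in a combined cluster. Around non-isolated clusters the shares were 53.3% and 52.7%, near the 53.9% of the arms as a whole. Replicate 1 gave 26.7% and 31.6%, against 41.7% and 41.9%, and replicate 2 gave 24.6% and 25.0%, against 37.4% and 37.7%. Free sides that reach past 20 kb, found next to 171 members (33.5%), count in these shares.

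The rule was also applied to the list of each replicate alone, and presence was then read in the other replicate, which that rule had not used. Replicate 1 had 870 isolated short clusters, and 51.1% of them were touched by replicate 2, against 72.5% of its 7934 non-isolated short clusters. Replicate 2 had 810, and 81.2% were touched by replicate 1, against 84.3% of its 7832 non-isolated ones. The share was lower for isolated clusters in both directions, with differences of -21.3 and -3.05 percentage points. The mean difference was -12.2 ± 12.9 (SD of the 2 directions, which share both libraries), about as large as its own spread, and no test was run.

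By length, the deficit was present in each class when replicate 1 set the rule. Its isolated clusters were touched by replicate 2 at 28.8%, 40.1%, 63.7% and 81.0% from under 1500 bp to 3000 to 4000 bp, against 51.3%, 62.4%, 80.3% and 90.4% of its non-isolated clusters. When replicate 2 set the rule, the shares touched by replicate 1 were 69.6%, 79.7%, 89.0% and 93.3%, against 69.2%, 80.4%, 89.9% and 96.6%. The classes thus lay close together in this direction once length was held alike. A cluster in a densely marked surround is touched more easily wherever edges shift, and its part in these shares was not tested.

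With a reciprocal overlap of 50% the order turned round in the mean. The shares were then 41.8% of isolated against 48.4% of non-isolated clusters with the rule set in replicate 1, and 60.7% against 49.1% with the rule set in replicate 2. The isolated clusters had the higher share with the rule set in replicate 2 alone.

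All 4 arms held isolated clusters at a like density. There were 5.79 per Mb on 3L (142 members), 5.69 on 2L (131), 5.06 on 2R (107) and 4.66 on 3R (130). As a share of the short clusters of the arm they were 7.23% on 2R and between 5.77% and 6.09% on the other arms. Each is a single count from a single list, so neighbours in this order cannot be set against an error.

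Scores varied little from arm to arm, and support somewhat more. The median score of members was 0.40 on 2R, 0.37 on 3L, 0.36 on 3R and 0.36 on 2L. Replicate 1 touched 84.1%, 75.4%, 78.5% and 70.2% of the members of these arms, and replicate 2 touched 38.3%, 42.3%, 33.8% and 37.4%. On each arm the share touched by replicate 1 was above that of its non-isolated clusters, which ran from 64.4% to 71.7%. The share touched by replicate 2 was below theirs on each arm, which ran from 54.3% to 58.8%.

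Along the arms the isolated clusters were spread widely, with a surplus next to the centromere side. The first 10% of the arm from the centromere-side end held 74 members (14.5%), against 10.2% of the non-isolated clusters. The next sections of 10% held 7.84% and 9.22%, against 10.3% and 11.7%, so that the whole 25% of the arm on the centromere side came to 26.7% of members and 26.8% of non-isolated clusters. In the lists of single replicates that part held 30.8% of isolated against 22.9% of non-isolated clusters in replicate 1, and 26.8% against 23.7% in replicate 2. The 25% on the telomere side held 17.8% and 20.8%. Another high section, the seventh from the centromere, held 70 members (13.7%), against 9.66% of non-isolated clusters.

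**Figure D5:**
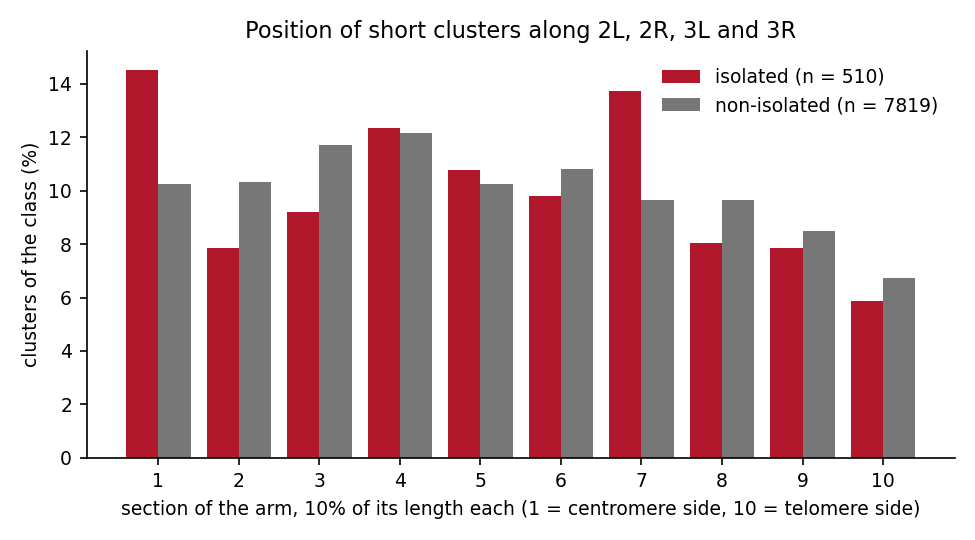
Share of isolated and non-isolated short clusters (%) in each section of 10% of the arm, counted from the centromere side and pooled over 2L, 2R, 3L and 3R. The isolated clusters reach 14.5% in the first section and 13.7% in the seventh, against 10.2% and 9.66% of the non-isolated clusters.

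The surplus in the first section was seen on each arm. It was 16.8% of members against 9.25% of non-isolated clusters on 2L, 15.9% against 13.0% on 2R, 10.6% against 9.08% on 3L and 15.4% against 10.6% on 3R. By replicate list, the first section held 16.1% of the isolated clusters of replicate 1, against 7.56% of its non-isolated ones, and 9.88% of those of replicate 2, against 8.98%. The surplus was therefore large in replicate 1 and small in replicate 2.

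Pooled over the arms, members next to the centromere side differed from the rest in support and score. Replicate 1 touched 66.2% of the 74 members in the first section, against 78.4% of the other 436, and replicate 2 touched 47.3%, against 36.5%. Their median score was 0.41, against 0.36, and 7 of the 12 members with scores over 1 lay there. Non-isolated clusters showed the same order, with replicate 1 at 60.6% against 68.6%, replicate 2 at 67.1% against 55.5%, and 48 of 95 scores over 1 in the first section. In the pooled arms these features were thus shared by both classes of short cluster at that end. Among members, 3R departed from the pooled order. Replicate 2 touched 25.0% of its 20 members in the first section, against 33.8% of all its members. Their median score was 0.34, against 0.36, and 0 scored over 1. The other arms followed the pooled order in support and median score, and 5 of the 7 scores over 1 lay on 3L.

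In windows of 1 Mb the number of members ranged widely. The median was 4 over 99 windows, with 11 windows holding at least 10. The highest count, 14, lay on 2L from 8000001 to 9000000, where 38.2% of the sequence was covered, and 3 windows held none. Of these 3, 3R 24000001 to 25000000 was covered at 70.1% and 2L 2000001 to 3000000 at 61.4%, and the last is the short end piece of 2L. These are the extremes alone, and the relation of count to coverage over all windows was not measured. The rule itself disfavours densely covered windows, since a neighbour within 5000 bp excludes a cluster.

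Scores just inside and just outside the limits of the rule overlapped. The longest members, at 3969, 3958 and 3905 bp, scored 0.69, 1.13 and 0.50. The isolated clusters just past the limit, at 4022, 4145 and 4157 bp, scored 0.74, 1.04 and 0.42. Members with the closest neighbours, at 5001, 5001 and 5012 bp, scored 0.37, 0.41 and 0.29, while short clusters just excluded, at 4991, 4984 and 4982 bp, scored 0.41, 0.073 and 0.50. In all, 69 members had a neighbour within 5500 bp, and 97 excluded clusters had their nearest neighbour at 4500 to 5000 bp.

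Regions typed as depleted, which carry a score below 0, were rare on these arms as a whole, with 26 in the combined list. Some of them lay in the free stretch of 6 members, and 2 members had such a region within 5000 bp. The stretches next to members held 28.9% of the arm sequence without a combined cluster. The same counts were not made for non-isolated clusters, so no trait of members is read from them. Genes and sequence at the members were not analysed here.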

How the data were processed

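The submitters' processing notes name Bowtie 0.12.7, and the file headers give FlyBase release 5 as the build. For each of the 2 ChIP replicates and for the replicate set the authors deposited a region list, each region with a log2 score. The log2 scale was read from the deposited values, since 246 pairs of combined scores differed by exactly 1 (tolerance 1e-09). No source used here states the caller, its thresholds, the scaling of input or the making of the combined list. No list was used for input, and depth is unknown. The annotation at hand is of release 6, so no genes or sequences were placed.

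Members, comparisons and alternatives were chosen with earlier results of these data known. Distance was the start of the right cluster minus the end of the left one, and an arm end (3 members) counted as no neighbour. Named clusters are the 5 with the highest score, the 5 highest with 50% reciprocal overlap in both replicates, the 5 with the longest shorter side, the extremes of length, those next to each limit and the longest run. Clusters bordering the longest free sides, and the densest and the empty windows, were named after their values were seen. The rule was tested on simulated data against a direct search. Python 3.11.15, numpy 2.4.6, pandas 2.3.3 and matplotlib 3.10.9 were used.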

Additional observations from a re-analysis of the deposited data

How the results depend on the processing

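No paired analysis was possible because, between groups of samples, equal numbers tie a ChIP sample only to its input, and input lists were not used here. Isolated and non-isolated clusters were compared within each replicate, with no test. The number of isolated clusters was 1025 with an isolation distance of 3000 bp and 158 with 10000 bp, and 810 to 870 in the list of either replicate alone. Within length classes the direction of the score difference varied. The isolated median was the higher one at 1000 to 1500 bp (0.340 against 0.336) and at 3000 to 4000 bp (0.530 against 0.519). At the lengths between, it was the lower one. Over alternatives, none of which kept to 1 of these length classes, the difference of median scores held its direction in 11 of 11. It was -0.013 with a length limit of 3000 bp, -0.032 with 5000 bp, -0.016 with a distance of 3000 bp, -0.036 with 10000 bp, -0.024 with neighbours from any list, -0.013 for clusters scored no lower than the list median, -0.028 without tied scores and -0.021 over 1500 to 3000 bp, and -0.034 to -0.033 in either replicate alone. The median free stretch was 17690 bp with a distance of 3000 bp, 38545.5 bp with 10000 bp and 39232 bp for clusters scored no lower than the list median, and 24453 to 29417 bp in either replicate alone. These settings change such totals by construction. Mean replicate support was 85.6% for clusters scored no lower than the list median, and 38.0% to 76.7% with either replicate left out. The difference in support by the other replicate was 2.58 percentage points at 50% reciprocal overlap, and -21.3 to -3.05 with either replicate left out. For the 25% of the arm on the centromere side the difference was -4.24 percentage points for clusters scored no lower than the list median and 4.15 for the end 2 Mb, and 3.07 to 7.95 in either replicate alone, against -0.114 in the combined list. For the 25% on the telomere side it was -2.95 in the combined list, -7.01 to -2.45 in either replicate alone and 0.0803 for the end 2 Mb, and it lay below 0 in 10 of 11 alternatives. The causes were not tested. The files hold no read counts, so what depth limits was not measured.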
